A study of Mus musculus with 4 samples.

Results

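The B7 family is a group of membrane proteins that T cells read through receptors of the CD28 family. Some of its members, such as Cd80 and Cd86, can switch a T cell on through CD28 or off through CTLA-4, whereas Cd274 (PD-L1) and Pdcd1lg2 (PD-L2) bind PD-1 and restrain it. Icosl is the ligand of ICOS, and Cd276 (B7-H3) and Vtcn1 (B7-H4) are mostly described as inhibitory. Antigen-presenting cells carry most of these ligands, and interferon-gamma is a well known inducer of Cd274 in epithelial cells.

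The ligand genes were taken by symbol from a table of 29286 gene rows, namely Cd274, Pdcd1lg2, Cd276, Icosl, Cd80, Cd86 and Vtcn1, and all 7 had a row of their own. Messenger RNA came from a conditionally immortalised mouse podocyte line, kidney epithelial cells of the glomerulus, differentiated for 12 days and then exposed for 48 hours to a transfected oligonucleotide at 50 nM. In 2 libraries this was a miR-93 mimic and in the 2 others a nontargeting (NT) mimic. Since the RNA of whole cultures was measured, fewer cells of a type and less RNA per cell cannot be told apart. According to the methods of the study, the line is expanded with interferon-gamma, which drives its thermosensitive T antigen, and differentiates without it. The table gave 1 FPKM value (fragments per kilobase of transcript, scaled to sequencing depth) per gene and group, pooled over both libraries by the authors, so no spread between libraries can be shown and no test between the groups was made. The family was chosen with the values of this same comparison in view, in which Cd274 was lower with the miR-93 mimic, so its values are a description only.

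Column names in the table give only q1 and q2, and q1 was read as the miR-93 mimic. That reading was given by the rule that picked the family. It was compared with Rps6ka4 (Msk2), which the study describes as reduced by this mimic. In the table Rps6ka4 had an FPKM of 9.68 under q1 and 14.7 under q2. With the opposite reading every direction below would turn round.

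miR-93 belongs to the miR-17 family, whose members share a seed, the bases by which a microRNA recognises sites in 3′ UTRs. Mature sequences are shown to make clear which letters a site must match. They are from RefSeq (build GRCm38.p6), with the seed, bases 2 to 8, in capitals. The seed was shared by 7 mature mouse miRNAs in the table, of which 4 are shown.

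mmu-miR-93-5p: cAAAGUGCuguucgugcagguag
mmu-miR-106b-5p: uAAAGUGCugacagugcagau
mmu-miR-17-5p: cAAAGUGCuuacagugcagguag
mmu-miR-20a-5p: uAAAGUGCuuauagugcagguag

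Matches to this seed were found in the 3′ UTR of 3 of the 7 ligand genes, counting sites of 7 or 8 bases in the longest annotated 3′ UTR. The sites are shown because they are the letters in these genes that the mimic could pair with. Each line gives up to 30 bases that end with the match, which is in capitals.

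Cd274 8mer: ctcatggtgttggattggtgtgGCACTTTA
Pdcd1lg2 8mer: tctgaacagcaagaccccaatgGCACTTTA
Pdcd1lg2 7mer-m8: gaatcttgcaggacctgccatttGCACTTT
Cd80 7mer-m8: aaaatgttggtaattttcagccaGCACTTT

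The Cd274 8mer lay at bases 2586 to 2593 of a 3′ UTR of 2683 bases, close to its end, and a 6mer lay at bases 332 to 337. In Pdcd1lg2, the neighbouring gene, the 8mer lay at bases 226 to 233 and the 7mer-m8 at bases 120 to 126 of 669 bases. The Cd80 match, at bases 800 to 806 of 1896, was in the longest 3′ UTR and was absent from the shortest, of 46 bases. Cd276, Icosl, Cd86 and Vtcn1 held no match of 6 or more bases in 3′ UTRs of 2041, 1622, 1493 and 1670 bases. An 8mer (GCACTTTA, on the sense strand) was held by 4.64% of the 10032 expressed genes with an annotated 3′ UTR, and the 7 bases GCACTTT, which are part of it, by 15.1%. A further 7.40% had the other 7-base match that was counted, CACTTTA (7mer-A1), as their best. All these shares are over expressed genes, and Pdcd1lg2 was not expressed, so the count of ligand genes with a site is not fully like them. A match is a description of letters, and binding was not measured here.

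Of the 7 ligand genes, 4 had a mean FPKM over both groups of at least 1, the level used here for expressed genes, and 3 did not. The order of the levels with the miR-93 mimic was Cd276, Icosl, Cd274 and Cd80, and with the NT mimic it was Cd276, Cd274, Icosl and Cd80. Icosl and Cd274 differed little from each other in miR-93 mimic cells, at 1.90 and 1.86.

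**Figure D1:**
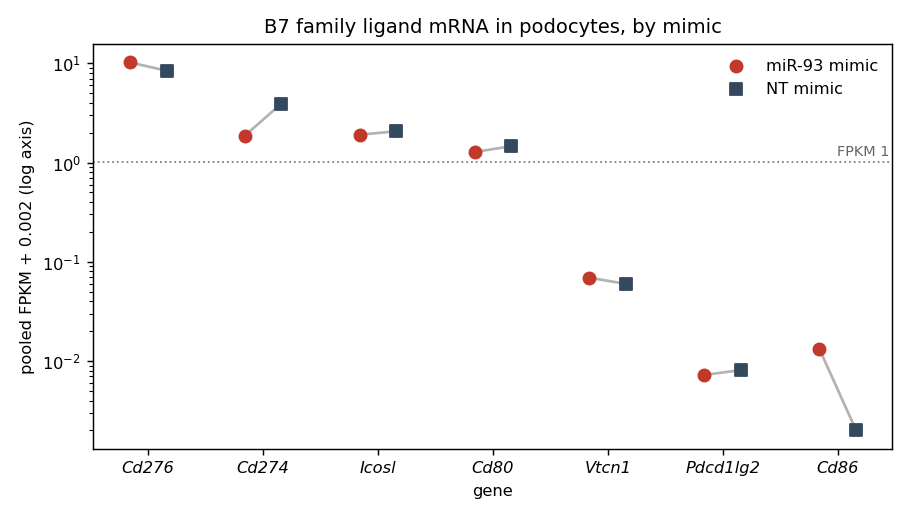
Pooled FPKM of the 7 B7 family ligand genes (log axis, 0.002 added so that a value of 0 can be drawn). Circles are the miR-93 mimic and squares the NT mimic, and the dotted line marks an FPKM of 1. Cd274 stands at 1.86 in miR-93 mimic cells and 3.93 in NT mimic cells, and the bottom 3 genes lie under 0.1 in both groups.

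Cd274, a PD-1 ligand that restrains T cells (mm9 chromosome 19, 29441927 to 29462585), had an FPKM of 1.86 in miR-93 mimic cells and 3.93 in NT mimic cells. It was 2.11-fold lower, a log2 ratio of −1.08, or −1.04 on the scale of FPKM plus 0.1 that is used for all ratios below. From the step that a single fragment makes in low rows, these values amount to about 699 fragments in miR-93 mimic cells and 1324 in NT mimic cells, which gives a standard error (SE) of 0.0674 for the log2 ratio. This error covers the counting of fragments only and takes the annotated transcript of 3622 bases as the one measured. Variation between libraries is not in it.

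Few expressed genes lay as low. Of 10798 expressed rows with a single gene name, 412 (3.82%) were lower by a log2 of 0.5 or more, the fold cutoff of the study, and 197 (1.82%) were higher by as much. Among the 4 expressed ligands this count was 1 lower, Cd274, and 0 higher. The share lower by a log2 of 1 or more was 0.472% of all expressed genes (51 genes). Among the 2924 genes whose mean FPKM was within 2-fold of that of Cd274, 4.58% were lower by 0.5 and 0.65% by 1 or more. The median of all expressed genes was −0.09, and 69.4% of them had the lower value with the miR-93 mimic. Centred on that median, Cd274 stood at −0.95, and the numbers past a log2 of 0.5 over all genes became 265 lower and 271 higher.

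Cd276 (B7-H3, chromosome 9, 58372106 to 58402840) was the most abundant ligand and the only expressed one with the higher value under the miR-93 mimic. Its FPKM was 10.2 in miR-93 mimic cells and 8.42 in NT mimic cells, 1.21-fold higher (log2 ratio 0.28, counting SE 0.0358). That is under the fold cutoff, and 94.8% of expressed genes had a lower ratio.

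Icosl (chromosome 10, 77532112 to 77542270), the ligand by which ICOS on T cells is engaged, had an FPKM of 1.90 in miR-93 mimic cells and 2.06 in NT mimic cells (log2 ratio −0.11, counting SE 0.0877). Cd80 (chromosome 16, 38458975 to 38495608), which has been studied in podocytes in connection with proteinuria, had 1.27 in miR-93 mimic cells and 1.46 in NT mimic cells (log2 ratio −0.18, counting SE 0.0992). Both ratios were near the median of all genes, with values of −0.02 for Icosl and −0.09 for Cd80 after centring. Cd80 held a 7mer-m8 and Icosl no site, and the gap between their ratios was smaller than either counting error. A single pair of different genes cannot show whether the site made a difference, however precise the ratios, and this was not tested.

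**Figure D2:**
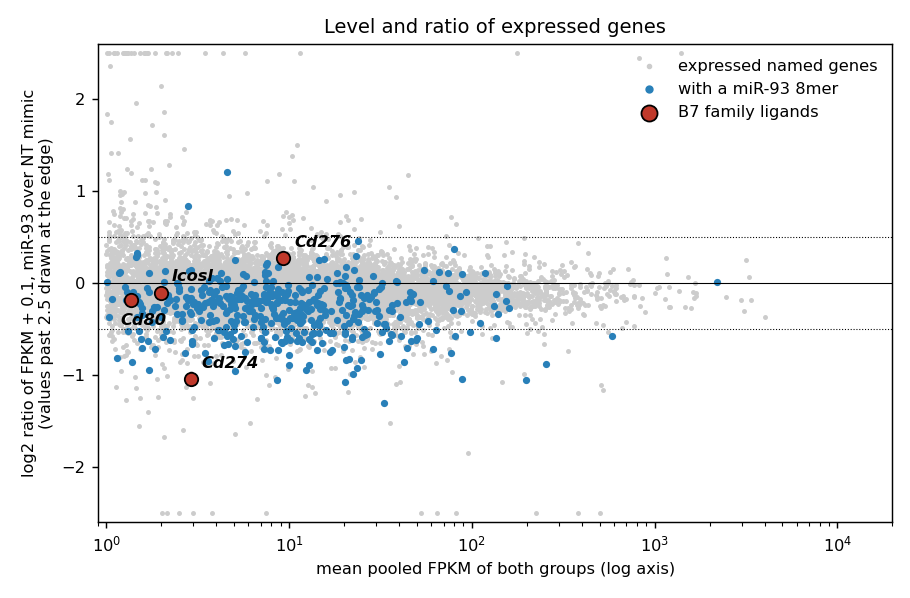
Log2 ratio of FPKM plus 0.1, miR-93 mimic over NT mimic, against the mean pooled FPKM (log axis) for 10798 expressed genes in grey (values past 2.5 in size are drawn at 2.5), with genes that hold a miR-93 8mer in blue and the 4 expressed ligands as large circles. Dotted lines mark log2 ratios of −0.5 and 0.5. Cd274, at −1.04, lies at the lower rim, and the other 3 ligands lie between −0.18 and 0.28.

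The other 3 ligands were close to the limit of detection, and the authors' table marked each as having too few reads to test. Vtcn1 (B7-H4) had an FPKM of 0.0671 in miR-93 mimic cells and 0.0577 in NT mimic cells, about 18.0 and 13.9 fragments. Pdcd1lg2 (PD-L2) had 0.00524 in miR-93 mimic cells and 0.00612 in NT mimic cells, about 0.897 and 0.938 fragments by the same estimate. The quotient of these values, 0.856, is 1 of the 4 quotients that recur in low rows, as it would be for a single fragment in each group. Cd86 had 0.0112 in miR-93 mimic cells, about 2.91 fragments, and was listed at 0 in NT mimic cells. No change of Pdcd1lg2 or Cd86 in either direction was detectable at this depth, and the 8mer of Pdcd1lg2 could therefore not be set against a ratio. Of the PD-1 ligands, Cd274 alone was over an FPKM of 1.

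Among expressed genes grouped by their best site, Cd274 was at the low end of its own class. The 465 genes with an 8mer had a median log2 ratio of −0.26, the 1051 with a 7mer-m8 −0.14, and the 5806 without a site −0.08. The 742 genes with a 7mer-A1 had −0.08 and the 1968 with a 6mer −0.06, near the genes without a site. Of the genes with an 8mer, 23.4% were lower by 0.5 or more and 1.29%, or 6 genes, by 1 or more. Cd274 was the sixth of the 465, counted from the lowest ratio. Of genes without a site, 2.36% were lower by 0.5 or more, against 2.43% of those with a 7mer-A1 and 1.73% of those with a 6mer. In the 30 bases on each side of the Cd274 8mer, 65% of the letters were A or T, against a median of 56.7% around 479 such 8mers (quartiles 50% and 65%). For the Pdcd1lg2 8mer the share was 43.3%.

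**Figure D3:**
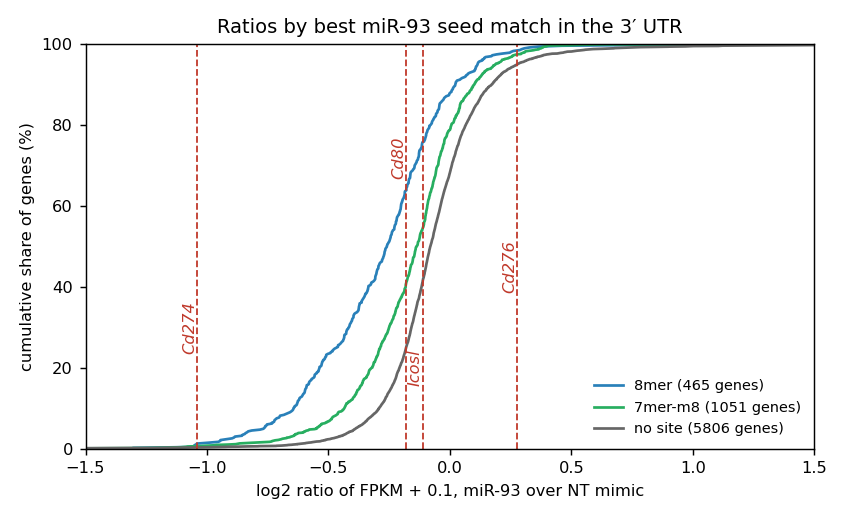
Cumulative share of expressed genes (%) by log2 ratio of FPKM plus 0.1, miR-93 mimic over NT mimic, for genes whose best 3′ UTR match is an 8mer, a 7mer-m8 or none. Dashed lines mark the expressed ligands. The 8mer curve lies left of the other curves, with medians of −0.26, −0.14 and −0.08, and Cd274 at −1.04 lies near its foot.

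The receptors of the B7 ligands were mostly at or near 0. Of 6 receptor genes, 1 was expressed. This was Rgmb, a coreceptor of bone morphogenetic proteins that also binds PD-L2, with an FPKM of 4.86 in miR-93 mimic cells and 6.56 in NT mimic cells (log2 ratio −0.43) and an 8mer of its own. Icos had 0.321 in miR-93 mimic cells and 0.207 in NT mimic cells, and Pdcd1 (PD-1), Cd28, Ctla4 and Treml2 were under 0.1. Further relatives of the family, among them the butyrophilins and Vsir (VISTA), had 9 of 10 genes in the table and none expressed.

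Several other ligands by which cells hold back or stimulate lymphocytes had lower values with the miR-93 mimic. Of 18 such genes 11 were expressed, and 4 were lower by 0.5 or more and 0 higher, with a median log2 ratio of −0.23, against 3.82% lower, 1.82% higher and a median of −0.09 over all expressed genes. After centring the list had 3 lower and 1 higher, Pvrl3. The most abundant were Lgals9, the galectin that binds TIM-3, at an FPKM of 123.8 in miR-93 mimic cells and 127.1 in NT mimic cells, and Pvrl2 (nectin 2) at 76.6 in miR-93 mimic cells and 67.5 in NT mimic cells.

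Tnfsf18 (GITR ligand), a costimulatory member of the TNF family, had the widest gap of this group. Its FPKM was 24.5 in miR-93 mimic cells and 52.5 in NT mimic cells (log2 ratio −1.10), and its 3′ UTR of 1486 bases held no match. Its ratio was close to that of Cd274, at a higher level per length in both groups. Pvr (CD155), the ligand of TIGIT and CD226, had 7.79 in miR-93 mimic cells and 12.4 in NT mimic cells (log2 ratio −0.66) and a 7mer-m8. Tnfrsf14 (HVEM), the partner of BTLA, had 2.37 in miR-93 mimic cells and 3.76 in NT mimic cells (log2 ratio −0.65) and a 6mer. Tnfsf9 (4-1BB ligand) had 1.03 in miR-93 mimic cells and 1.54 in NT mimic cells (log2 ratio −0.53), with no match in 253 bases, and was inside the cutoff after centring. Of these 4 genes, 1 held a site of 7 or more bases, that of Pvr, which is shown beside those of the ligands for comparison.

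Pvr 7mer-m8: gagttgaaagtatttgtgccactGCACTTT

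**Figure D4:**
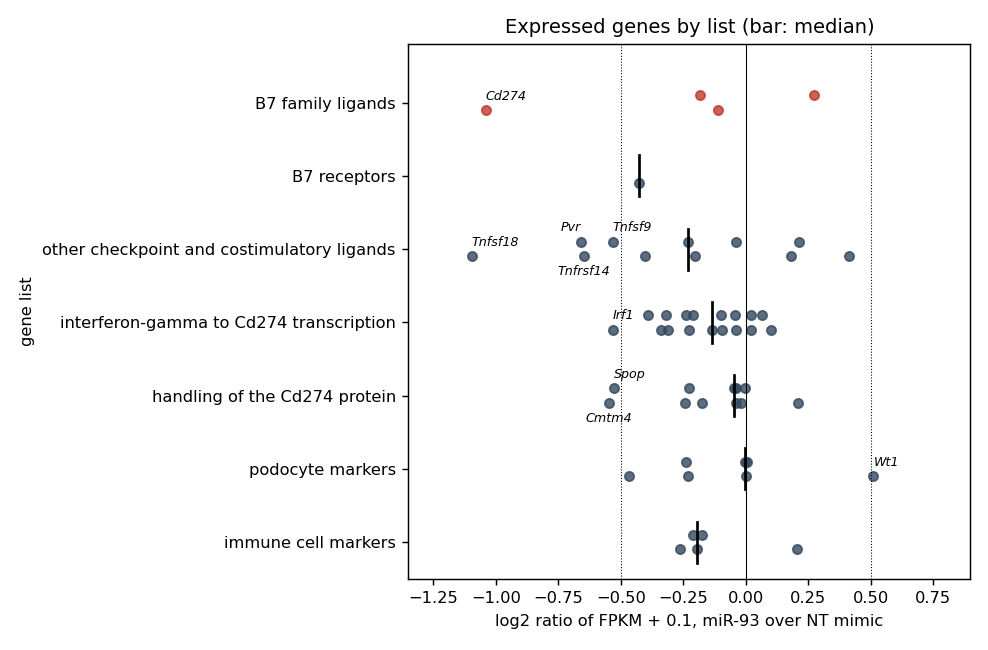
Log2 ratio of FPKM plus 0.1, miR-93 mimic over NT mimic, for expressed genes, by gene list. Each point is a gene, the black bar is the list median (none is drawn for the ligands themselves), and genes past 0.5 in either direction (dotted lines) are named. Cd274 at −1.04 and Tnfsf18 at −1.10 stand apart from the other points.

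The route by which interferon-gamma switches on Cd274 runs from its receptor through Jak1 and Jak2 to Irf1, which in human cells binds the promoter of this gene. Of 18 genes on this list 17 were expressed, with a median log2 ratio of −0.14, and 13 had the lower value with the miR-93 mimic. Over all expressed genes the median was −0.09 and 69.4% had the lower value, so the list lay near the background. Past the fold cutoff of 0.5 were 3.82% of all expressed genes on the lower side and 1.82% on the higher. In this list 1 gene passed it, Irf1, at an FPKM of 35.3 in miR-93 mimic cells and 51.0 in NT mimic cells (log2 ratio −0.53). It held no miR-93 match, and centred on the median of all genes it was inside the cutoff. Ifngr1, the ligand-binding receptor chain, had 105.7 in miR-93 mimic cells and 101.2 in NT mimic cells (log2 ratio 0.06), and the second chain, Ifngr2, had 39.3 in miR-93 mimic cells and 51.6 in NT mimic cells (log2 ratio −0.39). Jak2 stood at −0.32 and Irf9, which held an 8mer, at −0.34. Hif1a, a hypoxia factor that has been described at the same promoter, was the next most abundant gene of the list after Ifngr1, at 54.0 in miR-93 mimic cells and 57.8 in NT mimic cells.

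A further list held 11 genes whose proteins stabilise or destroy PD-L1, and all 11 were expressed. Their median log2 ratio was −0.05, 2 were lower by 0.5 or more and 0 higher, against 3.82% lower, 1.82% higher and a median of −0.09 over all expressed genes. Cmtm4, a membrane protein that protects PD-L1 from degradation, had an FPKM of 25.2 in miR-93 mimic cells and 36.9 in NT mimic cells (log2 ratio −0.55) and held a pair of 7mer-m8 sites. Its relative Cmtm6, the main protector, had 21.4 in miR-93 mimic cells and 18.5 in NT mimic cells (log2 ratio 0.21). Spop, an adaptor that directs PD-L1 to degradation, had 25.1 in miR-93 mimic cells and 36.2 in NT mimic cells (log2 ratio −0.53) and no match. Cmtm4 and Spop were both inside the cutoff after centring. The most abundant genes of this list were Cops5, at 68.9 in miR-93 mimic cells and 70.8 in NT mimic cells, and Stub1, at 47.7 in miR-93 mimic cells and 49.2 in NT mimic cells. PD-L1 protein was not part of these data.

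Rows around Cd274 were read to see how far along the chromosome its difference reached. Within 250 kb of its start the table held 12 rows, Cd274 included. 5033414D02Rik, whose start lies at −18.8 kb from that of Cd274, had an FPKM of 40.3 in miR-93 mimic cells and 43.7 in NT mimic cells (log2 ratio −0.11). Insl6, an insulin-like gene, had 5.19 in miR-93 mimic cells and 6.06 in NT mimic cells, and Jak2, at −115.6 kb, had 10.6 in miR-93 mimic cells and 13.3 in NT mimic cells. On the other side A930007I19Rik, C030046E11Rik and Ermp1 had log2 ratios of 0.08, 0.06 and −0.34.

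The named neighbours with an FPKM over 1 thus lay between −0.34 and 0.08. The closest match to the ratio of Cd274 was a row without a gene name, XLOC_013301, of 184 bases (chromosome 19, 29415990 to 29416173, mm9), at −25.9 kb. It had 2.92 in miR-93 mimic cells and 6.52 in NT mimic cells (log2 ratio −1.13), and FPKM of so short a row is uncertain. Another unnamed row, XLOC_013300, had 0.511 in miR-93 mimic cells and 0.590 in NT mimic cells, and Gm9883 was under 0.1 in both groups. Rln1, a relaxin gene, was higher at a low level, with 0.287 in miR-93 mimic cells and 0.0186 in NT mimic cells.

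**Figure D5:**
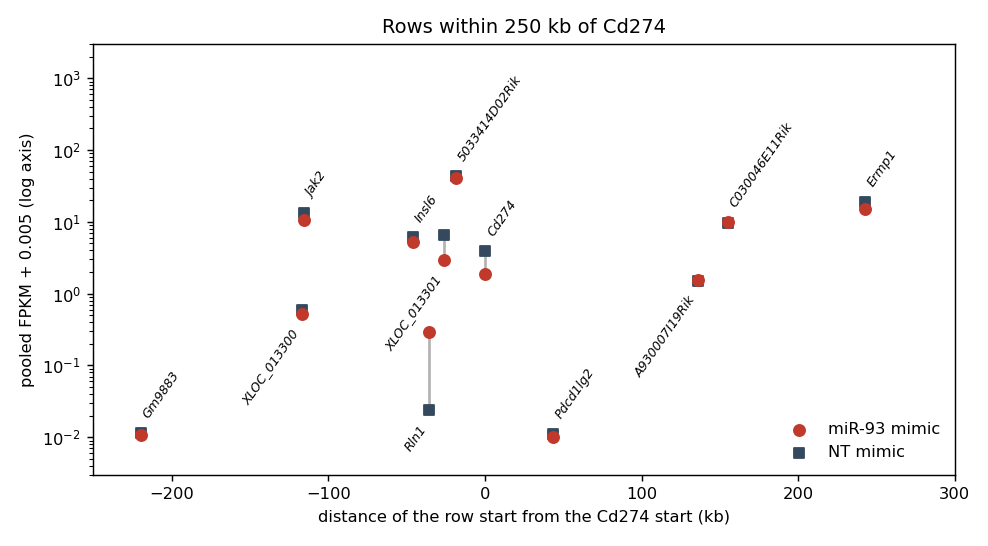
Pooled FPKM (log axis, 0.005 added) of the 12 rows within 250 kb of Cd274 by the distance of their start from that of Cd274 (kb). Circles are the miR-93 mimic and squares the NT mimic. Cd274 and the unnamed row XLOC_013301 show a clear gap with the lower value under the miR-93 mimic, Rln1 a gap of the opposite direction, and most other pairs nearly coincide.

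The 5 named genes nearest to Cd274 in level and ratio together, by Euclidean distance in the plane of log2 mean FPKM and log2 ratio over the 2 pooled groups, were Lce3c, AW112010, Aqp5, Gm8995 and LOC100502814. Lce3c, of the cornified envelope genes, had an FPKM of 1.93 in miR-93 mimic cells and 3.89 in NT mimic cells (distance 0.0662). AW112010 had 1.67 in miR-93 mimic cells and 3.76 in NT mimic cells (distance 0.123), and the water channel gene Aqp5 had 1.93 in miR-93 mimic cells and 3.61 in NT mimic cells (distance 0.179). Gm8995 had 1.72 in miR-93 mimic cells and 4.24 in NT mimic cells (distance 0.218). LOC100502814 had 2.18 in miR-93 mimic cells and 3.86 in NT mimic cells (distance 0.255). Lce3c and Aqp5 held no miR-93 match, and for the other 3 no annotated 3′ UTR was matched.

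The label of the cells was checked against markers. Of 13 podocyte markers 7 were expressed. Among them was Actn4, at an FPKM of 218.7 in miR-93 mimic cells and 218.1 in NT mimic cells. Synpo had 158.1 in miR-93 mimic cells and 158.0 in NT mimic cells. Wt1 was the 1 gene past the cutoff (2.06 in miR-93 mimic cells and 1.42 in NT mimic cells, log2 ratio 0.51). Over all expressed genes, 1.82% were higher by 0.5 or more and 3.82% lower. The slit diaphragm gene Nphs1 (nephrin), a defining marker of mature podocytes, was near 0, at 0.164 in miR-93 mimic cells and 0.0387 in NT mimic cells. Immune cells, the usual source of B7 ligands, were checked by 16 markers, whose summed FPKM was 58.6 in miR-93 mimic cells and 67.6 in NT mimic cells. Of these, 11 were under 0.1, including Ptprc (CD45), Cd3e, Itgax and Adgre1, the last 3 listed at 0 in both groups. The 5 others, of which Cd74 and the H2 genes belong to class II antigen presentation, were Cd74 (25.5 in miR-93 mimic cells and 30.6 in NT mimic cells), H2-Ab1 (16.4 in miR-93 mimic cells and 18.8 in NT mimic cells), H2-Aa, Cd14 and Csf1r, with log2 ratios between −0.26 and 0.21. The defining leukocyte marker Ptprc had 0.0332 in miR-93 mimic cells and 0.0140 in NT mimic cells, and any part of other cell types in the values of the ligands was not tested.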

How the data were processed

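Poly-A RNA libraries of podocytes (2 per mimic) were sequenced as paired ends. Per the submitters' processing notes and the methods of the study, the authors ran FastQC and Trimmomatic, aligned reads to mm9 with TopHat2 2.0.4 and used Cufflinks and Cuffdiff2 (release not given in the sources used here). As deposited by the authors, the values are FPKM, pooled per group and normalised. The deposited workbook held 5 tables. The authors' fold changes, test statistics and p- and q-values in it, and the 4 shorter tables, which were drawn up by the authors from that comparison, were not used.

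Log2 ratios of FPKM plus 0.1 were computed with Python 3.11.15 and pandas 2.3.3. Rows of several genes (287), without a gene name (3650), with a name turned into a date (22) or with the status FAIL (66) or HIDATA (6) were left out of gene counts, and expressed rows had a mean FPKM of at least 1. In rows with too few reads to test, the quotient of both values recurred at 0.819, 0.856, 0.933 and 0.975 (within 0.0015, 288 of 3788 rows), as whole fragments of 2 by 2 libraries would give. From these quotients, the deeper of both miR-93 mimic libraries exceeded the other by 1.14-fold and the deeper NT mimic library by 1.04-fold. In genes with 1 transcript, after taking off 150 bases for the fragment, 1 fragment was worth 0.00922 FPKM for a transcript of 1 kb in miR-93 mimic cells and 0.0103 in NT mimic cells, or about 5.42e+07 and 4.86e+07 fragments per library. Fragments of a ligand gene were estimated from its longest coding transcript, and SEs of ratios from those fragments (Poisson). This step was chosen after seeing the data.

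3′ UTRs of at least 30 bases came from GENCODE M21 (GRCm38), matched by symbol, and positions are given in mm9 only. The steps were tested on simulated data. The members and gene lists were chosen with earlier results of these data known. Named genes were the 7 ligands, listed genes that were expressed and past a log2 of 0.5, the 2 most abundant of each list, rows within 250 kb of Cd274 and the 5 genes nearest to it. Others were named after their values were seen. The protein sequences were not used here. Alternatives were other pseudocounts (0.01 and 1), floors (none and 5), a cutoff of 1, centring and the shortest 3′ UTR. The methods of the study call the RNA libraries biological replicates and the sample titles number them 1 and 2, while the sample descriptions give both as replicate 1. Separate cultures are not mentioned in the labels.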

Additional observations from a re-analysis of the deposited data

How the results depend on the processing

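No paired analysis was possible because the values were pooled over the libraries of each group, and for the same reason no library could be left out. Cd274 kept its direction and stayed past a log2 of 0.5 under every alternative that kept it. Its log2 ratio was −0.79 with a pseudocount of 1, −1.08 with 0.01 and −0.95 after centring. A floor of 5 left 0 ligands past the cutoff because Cd274 was below it. Over all named genes, 412 were lower and 197 higher, and this became 265 and 271 after centring, 263 and 54 at a floor of 5, 657 and 1144 without a floor, 51 and 63 at a cutoff of 1, and 280 and 123 with a pseudocount of 1. The listed checkpoint ligands had 4 lower, against 3 after centring (Tnfsf9 lost, with 1 higher, Pvrl3) and 3 with a pseudocount of 1. They had 2 lower at a floor of 5 and 1 at a cutoff of 1. Without a floor they had 4 lower and 1 higher, Icam1, at 0.156 in miR-93 mimic cells and 0.0217 in NT mimic cells. At that setting the B7 receptors also had 1 higher, Pdcd1, at 0.0557 in miR-93 mimic cells and 0 in NT mimic cells. The podocyte markers then had 2 higher, Wt1 and Nphs1, the latter near 0 in both groups. The interferon-gamma list and the protein-handling list had 1 and 2 lower, and 0 each after centring or at a cutoff of 1. Wt1 was inside the cutoff with a pseudocount of 1 and below the floor of 5. The shortest 3′ UTRs removed the Cd80 site. Depth limits Pdcd1lg2, Cd86 and Vtcn1, whose values rest on about 18.0 fragments or fewer.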

Other observations

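Of the class II antigen presentation genes, which antigen-presenting cells use beside Cd80 and Cd86, Cd74 and H2-Ab1 had FPKM values over those of Cd276, the most abundant B7 ligand, and H2-Aa did not. Their usual activator Ciita was at 0.0905 in miR-93 mimic cells and 0.0712 in NT mimic cells. Cd74 had 25.5 in miR-93 mimic cells and 30.6 in NT mimic cells, and H2-Ab1 had 16.4 in miR-93 mimic cells and 18.8 in NT mimic cells. The costimulatory receptor gene Cd40 was expressed at 1.68 in miR-93 mimic cells and 1.44 in NT mimic cells (log2 ratio 0.21), whereas Cd48, Cd70 and Tnfsf14 were listed at 0 in both groups.

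Cd47, the ligand that keeps macrophages from engulfing a cell, had an FPKM of 6.95 in miR-93 mimic cells and 8.17 in NT mimic cells (log2 ratio −0.23). Cd200, which restrains myeloid cells, had 7.03 in miR-93 mimic cells and 8.09 in NT mimic cells (log2 ratio −0.20). The nectin genes differed in direction, with Pvrl1 at a log2 ratio of −0.40, Pvrl2 at 0.18 and Pvrl3 at 0.41.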
